A study of Mus musculus with 36 samples.

Results

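The comparison described is that of callus 3 days after fracture (D3) with intact bone (D0) in wild-type (WT) mice, measured on the 3 arrays titled as WT day 3 and the 3 titled as WT day 0, which are 6 of the 36 arrays of the series. The 6 arrays were taken by their titles, and all were found, though earlier results of these data were known when the comparison was chosen. WT mice were male C57BL/6N of 8 weeks of age and carried no deletion. Per the study's methods, the fractured mice were operated on under isoflurane with buprenorphine for pain, and a pin was placed in the marrow cavity of the femur, so at D3 the effects of the operation, the pin and the fracture cannot be told apart. For the genotype comparison, 3 D0 and 3 D3 arrays of RAG1-/- mice were used, which have the same background and age, cannot rearrange antigen receptor genes and so lack mature T and B cells; for time, 3 arrays of WT callus at day 7 (D7) were used. Per the methods of the study, the bone was taken with a short stretch of shaft on either side of the fracture after removal of soft tissue, D0 is the same region of intact femora although the labels name callus tissue for every sample, and RNA of 5 mice per group was pooled. The 3 arrays of a group are technical replicates of 1 pool, so the p-values given here measure the spread between arrays and not between mice.

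In the first days after a fracture a blood clot fills the gap, inflammatory cells enter it, and progenitors of the periosteum and marrow begin to divide. Membranous bone forms along the periosteum away from the gap, and cartilage forms nearer to it and is replaced by bone later. Osteoblasts lay down a matrix of type I collagen and mineralise it, osteoclasts of the macrophage lineage resorb it, and nearby muscle fibres that lose their nerve supply bring back the fetal form of the acetylcholine receptor.

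Values are log2 intensities of Illumina BeadChip probes, on which a difference of 1 is a 2-fold difference. Of 25697 probes, 12848 had a mean over all 36 arrays above the median probe, 4.72, and were tested. They stand for 10291 genes, each represented by its brightest tested probe. A gene is said to have risen or fallen if limma's test gave an adjusted p under 0.01 (Benjamini-Hochberg over all 10291 genes) and the difference was over 2-fold. By that rule 838 genes rose (8.14% of those tested) and 913 fell (8.87%), and the median difference over all tested genes was 0.09. On the 3 D3 arrays 2417 genes (23.5%) lay above all 3 D0 arrays and 2226 (21.6%) lay below them. With 1 array fewer the counts were smaller. Without D0 replicates 1, 2 and 3 in turn, 507, 477 and 581 rose and 584, 577 and 716 fell. Without D3 replicates 1, 2 and 3 in turn, 477, 533 and 440 rose and 722, 757 and 674 fell.

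The arrays of WT D3 correlated with each other at 0.904 to 0.917 over all probes and those of WT D0 at 0.934 to 0.950, while D3 and D0 arrays correlated at 0.805 to 0.826. Arrays of RAG1-/- D0 and D3 correlated within their groups at 0.995 and at 0.983 to 0.989. The median SD between the arrays of a group was 0.28 on the log2 scale in WT D0, 0.30 in WT D3, 0.10 in RAG1-/- D0 and 0.16 in RAG1-/- D3. WT D3 arrays were also nearer to WT D7 arrays (0.880 to 0.908) than to RAG1-/- D3 arrays (0.809 to 0.831).

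Where a gene had 2 or more tested probes, the probes did not always give the same answer. Of 2021 such genes, the brightest and the second brightest probe both passed limma's test (adjusted p under 0.05) in 312, and in 50 of these (16%) they went in opposite directions. Of the 50, 47 carried the same symbol for both probes in the second annotation deposited with the series. Of all 312, 302 did. Where both probes also passed the stricter rule for a change (138 genes), 11 were opposite. Across the 2021 genes, which are not independent replicates, the differences read by both probes correlated at r = 0.418. The same correlation was 0.609 for RAG1-/- D3 against D0, where 22 of 388 genes (5.67%) were opposite. For WT D7 against WT D0, which shares the D0 arrays, it was 0.373, and 37 of 245 genes (15.1%) were opposite.

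**Figure D1:**
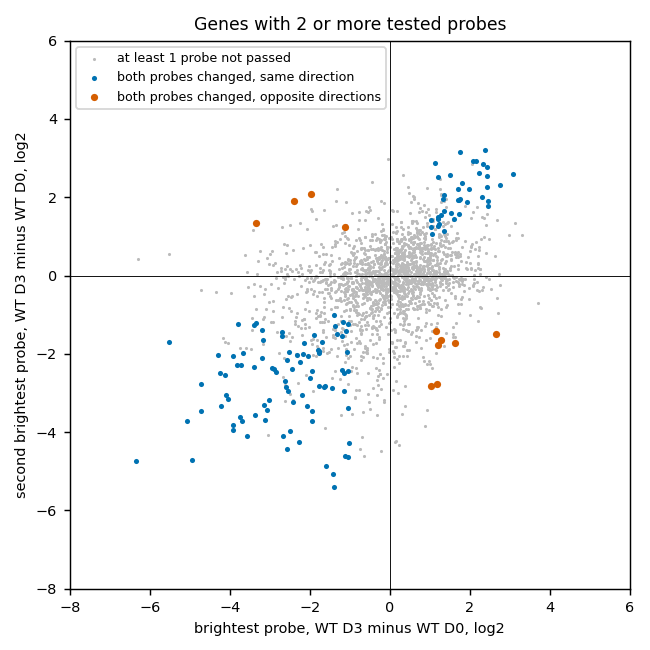
Difference of WT D3 from WT D0 (log2) read by the brightest (x axis) and the second brightest tested probe (y axis) of the 2021 genes that have both. Orange points are the 11 genes whose probes both changed but in opposite directions, blue points changed in the same direction with both probes (39 genes rose and 88 fell), and grey points had at least 1 probe that did not pass.

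Genes with a wide gap between 2 changed probes show what this means for a single gene. For Hmga1, a chromatin protein of dividing cells, the brighter probe fell from a mean of 7.99 to 4.65 and the other rose from 6.82 to 8.15. For Hdgf, a growth factor that binds heparin, the brightest probe rose by 1.17, and the next brightest probes fell by 2.77 and 1.68 on the log2 scale. Eftud2, a spliceosome component, rose with 2 of its 3 probes and fell with the other. Ikbkg, Ap2s1, Lass2 (now Cers2) and Cox4nb (now Emc8) also had a probe that rose and a probe that fell.

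Genes of bone formation were among the largest increases. Of 25 tested genes on the osteoblast and osteocyte list, 10 rose, 1 fell and 14 did not pass, with a median difference of 0.87. Fewer cells of a type and less RNA per cell cannot be told apart in RNA of whole bone, here or in the lists that follow. The counts of each list stand beside 8.14% risen and 8.87% fallen over all tested genes. A list with counts near these shares is not set apart from all genes. Sp7, also called osterix, is the transcription factor that commits progenitors to the osteoblast lineage. Its D0 arrays read 8.67, 8.49 and 8.45 and its D3 arrays 11.82, 11.99 and 11.89. The groups were far apart, and Sp7 rose 10.3-fold (log2 difference 3.36, SE 0.15, adjusted p = 0.000131). Dlx3, a homeobox factor of osteoblasts, read 6.79, 5.09 and 5.58 at D0 and 10.62, 10.64 and 10.56 at D3. Its D0 arrays were spread widely while its D3 arrays lay close together, and it rose by 4.78 (SE 0.44, adjusted p = 0.000911). Panx3, which forms channels in osteoblasts and in hypertrophic cartilage, rose by 3.73 (SE 0.55), from D0 arrays of 6.68, 6.37 and 4.63 to D3 arrays of 9.55, 9.79 and 9.52.

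Among the matrix and mineral genes, Ibsp (bone sialoprotein, which starts mineral deposition) read 8.57, 8.64 and 8.86 at D0 and 12.24, 12.46 and 12.46 at D3 with its brightest probe, a rise of 3.70 (SE 0.16, adjusted p = 0.00013). Its other tested probe was dimmer, with a mean of 8.19 at D0 and 7.49 at D3, and did not rise. Smpd3, a sphingomyelinase needed for mineralisation, rose by 3.16, and Ifitm5, a membrane protein of osteoblasts known as BRIL, rose by 3.10. Col1a2, the second chain of type I collagen, read 8.02, 8.34 and 7.63 at D0 and 10.94, 10.66 and 11.09 at D3, a rise of 2.90 (adjusted p = 0.000646). Col1a1, its partner chain, did not follow, with arrays of 10.35, 10.52 and 10.21 and 10.45, 10.35 and 10.26 that overlapped. Of the osteocalcin genes, Bglap2 rose by 1.23 (adjusted p = 0.00434), while Bglap1 had means of 11.53 and 11.23 and did not pass. These genes are near-identical copies, which probes may not tell apart. Pthr1 (now Pth1r), the parathyroid hormone receptor, rose by 2.35 with 2 of 3 probes higher. Ank, which exports pyrophosphate, an inhibitor of mineral, was the member that fell, by 1.19. Spp1 (osteopontin), with means of 9.62 and 10.41, Akp2 (alkaline phosphatase, now Alpl), with 8.51 and 8.74, and Sparc (osteonectin), with 11.76 and 11.03, did not pass.

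Of the genes for which a promoter is printed here, Ibsp is shown first, since among the matrix genes of the osteoblast list it had the largest rise. The 300 bases span the gene's start (RefSeq, GRCm38.p6, chr5:104299037-104299336, plus strand). Capitals mark each CANNTG (the E-box, which reads the same on both strands) and each TATAAA in either orientation, and no 2 matches overlap.
Ibsp: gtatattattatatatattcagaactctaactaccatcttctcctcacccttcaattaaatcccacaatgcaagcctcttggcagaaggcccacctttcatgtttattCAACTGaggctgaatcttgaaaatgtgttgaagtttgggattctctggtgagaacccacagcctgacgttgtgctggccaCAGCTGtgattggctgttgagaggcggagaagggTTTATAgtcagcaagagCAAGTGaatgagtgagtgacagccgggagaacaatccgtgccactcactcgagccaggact
The window held 3 E-boxes and 1 TATAAA on the reverse strand. Over all 32851 promoters in the table, 72.3% held at least 1 E-box, 17.6% held at least 3 and 13.6% held TATAAA on either strand.

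**Figure D2:**
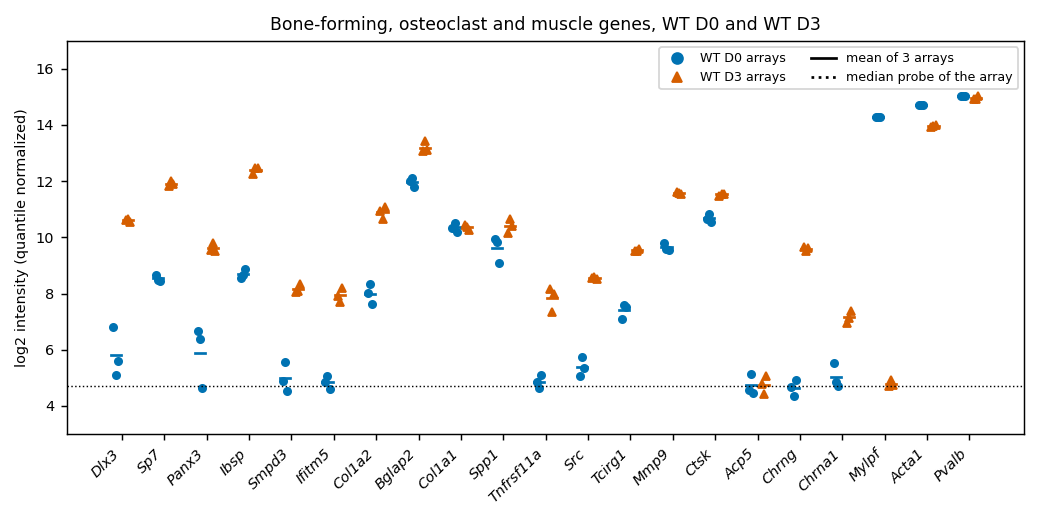
Log2 intensity (y axis) of 21 genes on the 3 WT D0 arrays (blue circles) and the 3 WT D3 arrays (orange triangles), with the mean of each group as a short bar and the median probe, 4.72, as a dotted line. D3 arrays lie above D0 arrays from Dlx3 to Bglap2, overlap them for Col1a1, and drop to the dotted line for Mylpf, which fell by 9.47.

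Genes of osteoclasts and of their differentiation rose in part. Of 17 tested genes on the osteoclast list, 7 rose, 2 fell and 8 did not pass, and the list's median difference was 0.85. Tnfrsf11a (RANK, the receptor through which RANKL drives osteoclast formation) read 4.86, 4.65 and 5.09 at D0 and 8.16, 7.34 and 7.97 at D3. It went from near the floor of the array to well above it, by 2.96 (SE 0.26, adjusted p = 0.000838). Src, a kinase that osteoclasts need to form their ruffled border, rose by 3.18, from arrays of 5.07, 5.75 and 5.34 to 8.55, 8.60 and 8.53. Tcirg1, a subunit of the proton pump that acidifies the resorption pit, rose by 2.14, and its other tested probe by 2.93. Mmp9 (gelatinase B) rose by 1.94, Oscar (a receptor that costimulates osteoclasts) by 1.50, Atp6v1b2 (another pump subunit) by 1.31 and Traf6 (the adaptor of RANK) by 1.14. Car2 (carbonic anhydrase, also abundant in red cells) fell by 3.19 and Ostm1 by 1.41. Ctsk (cathepsin K, the collagenase of osteoclasts) had arrays of 10.67, 10.82 and 10.54 at D0 and 11.48, 11.56 and 11.55 at D3, which did not overlap, but its difference of 0.85 was under the limit. Acp5 (the tartrate-resistant phosphatase), with means of 4.73 and 4.76, and Calcr (the calcitonin receptor), with 4.91 and 4.67, were near the floor at both times. The ligand Tnfsf11 (RANKL) and its decoy Tnfrsf11b (osteoprotegerin) were near the floor as well.

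Among collagens, the main chains other than Col1a2 did not pass. Col3a1 had means of 6.44 and 5.75 and Col5a1 of 10.39 and 11.13. Of 13 other collagens tested, Col24a1, a minor fibrillar chain of bone, rose by 3.13 and Col6a1 rose by 1.74, though the second probe of Col6a1 read -0.96. The basement membrane chains Col4a1 and Col4a2 fell by 1.59 and 3.54, and Col12a1, which decorates collagen fibrils, fell by 3.25. Of 22 tested genes that fold and crosslink collagen, 6 rose, 2 fell and 14 did not pass. P4ha1, a prolyl hydroxylase subunit, read 4.70, 4.42 and 4.38 at D0 and 7.90, 7.23 and 7.97 at D3 and rose by 3.20 (SE 0.25, adjusted p = 0.000524). Its partner P4hb rose by 1.09, the lysyl hydroxylase Plod3 by 1.75, the crosslinking oxidase Loxl1 by 1.64 and the procollagen peptidase Adamts2 by 1.55. Bmp1, a procollagen peptidase too, rose by 1.63 with its brightest probe and fell with its other probes. Pcolce, an enhancer of that cleavage, fell by 2.48, and Tmem38b by 3.06 with its second probe at 0.45. Lox had means of 8.86 and 5.46 with a wide spread and did not pass.

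Other matrix genes went both ways. Of 26 tested genes of the provisional and granulation matrix, 7 rose and 2 fell, with a median of 0.11. Timp1, an inhibitor of metalloproteinases that rises in many wounds, read 9.55, 9.41 and 9.32 at D0 and 11.97, 11.93 and 11.71 at D3, a rise of 2.44 that its other probe also read (2.54). Eln (elastin) rose by 2.24, Wisp1 (a matricellular protein of osteoblast progenitors) by 1.85, Cd44 (the hyaluronan receptor) by 1.70 and Fbn1 (fibrillin) by 1.44. Tnc (tenascin C) fell by 1.36 with its brightest probe, and its other probes read -1.30, -0.34 and 0.17. The small leucine-rich proteoglycans, which coat collagen fibrils, were split: of 9 tested, 4 fell and 1 rose. Lum (lumican) read 10.47, 10.49 and 10.42 at D0 and 5.10, 6.05 and 4.53 at D3, a fall of 5.24 to near the floor, Ogn (osteoglycin) fell by 4.15, Chad by 3.39 and Fmod (fibromodulin) by 2.96. Bgn (biglycan) rose by 1.51, and Dcn (decorin) stood at 12.19 and 12.33 with its brightest probe while its second read -4.23. Of 17 metalloproteinases and inhibitors, Mmp13 (collagenase 3), Mmp9 and Timp1 rose and Mmp2 (gelatinase A) fell by 2.47. The 2 dimmer probes of Mmp13 read -0.24 and 0.58.

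Of 13 tested cartilage genes, 2 rose, 2 fell and 9 did not pass. Col2a1, the main cartilage collagen, had means of 6.35 and 6.63, and Acan (aggrecan), with 4.41 and 4.35, was near the floor at both times. Comp, a matrix protein of cartilage and tendon, rose by 1.41. The hypertrophic cartilage list, which shares Ibsp, Panx3, Mmp13 and Pthr1 with the lists above, had 4 of 7 members higher, all of them these.

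Muscle genes formed one of the largest groups that fell. Of 34 tested contractile genes of skeletal muscle, 17 fell and 3 rose, with a median of -1.11, although the RNA came from bone after soft tissue had been removed. The summed intensity of the list, on the log2 scale, was 18.18 to 18.18 on the D0 arrays and 17.51 to 17.56 on the D3 arrays, so muscle RNA was abundant in both. Its part in the other differences was not tested. Mylpf, the regulatory light chain of fast fibres, had the largest difference of any gene, with 14.27, 14.27 and 14.27 on the D0 arrays and 4.71, 4.94 and 4.74 on the D3 arrays. That is a fall of 9.47 from among the brightest signals to the floor. The D0 values are identical (SD 0), which quantile normalization can give a probe of equal rank on each array, so they are not a measured agreement. Other genes of the same fibres did not fall as Mylpf did. Acta1 (skeletal actin) had means of 14.70 and 13.96, Myl1 (the essential light chains) of 14.93 and 14.29, Pvalb (parvalbumin) of 15.04 and 14.97, and Tnnc2 (fast troponin C) fell by 1.80. Between these, Ckmt2 (mitochondrial creatine kinase) fell by 3.91, Ryr1 (the calcium release channel) by 3.79, Actn3 by 2.66 and Ttn (titin) by 2.60. The 3 that rose were Tnnc1 by 1.31 and Tnnt1 by 1.28, troponins of slow fibres, and Myh8, the perinatal myosin, by 1.38. Myosin genes are similar in sequence, and cross-hybridisation between them was not tested.

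The fetal acetylcholine receptor showed the largest increase of all genes. Chrng, the gamma subunit that marks fetal or denervated muscle, read 4.65, 4.36 and 4.91 at D0 and 9.67, 9.50 and 9.64 at D3. All D0 arrays were near the floor and all D3 arrays far above it, a rise of 4.96 (SE 0.19, adjusted p = 0.000109). Chrna1, the alpha subunit, which the fetal and adult receptors share, rose by 2.14 (SE 0.27), from 5.54, 4.84 and 4.70 to 6.97, 7.13 and 7.39, and its second probe read 0.68. The other members of the myogenic list fell or did not pass: Chrnb1 had means of 8.79 and 8.91, Myog (myogenin) and Myod1 were near the floor at D3, and the atrophy ligases Fbxo32 and Trim63 fell by 3.45 and 2.07. Mef2c, a factor of muscle and bone, fell by 2.44, and its other 2 probes were lower too.

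The promoters of both receptor genes are shown because myogenic factors bind E-boxes, with each CANNTG in capitals (RefSeq, GRCm38.p6; Chrng at chr1:87205561-87205860, plus strand, and Chrna1 at chr2:73580289-73580588, minus strand, both spanning the start).
Chrng: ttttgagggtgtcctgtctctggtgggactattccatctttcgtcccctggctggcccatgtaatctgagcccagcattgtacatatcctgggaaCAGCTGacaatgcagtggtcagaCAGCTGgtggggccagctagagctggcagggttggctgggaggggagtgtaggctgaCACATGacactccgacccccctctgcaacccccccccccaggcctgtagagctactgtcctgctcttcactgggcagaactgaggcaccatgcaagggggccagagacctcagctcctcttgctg
Chrna1: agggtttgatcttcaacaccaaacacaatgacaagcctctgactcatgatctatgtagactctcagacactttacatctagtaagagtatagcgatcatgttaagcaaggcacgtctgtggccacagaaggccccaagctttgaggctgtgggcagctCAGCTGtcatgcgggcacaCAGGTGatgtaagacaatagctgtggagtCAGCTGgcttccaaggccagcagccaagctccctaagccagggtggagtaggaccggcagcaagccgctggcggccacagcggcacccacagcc
Each window held 3 E-boxes, which 17.6% of all promoters do at least, and neither held TATAAA.

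**Figure D3:**
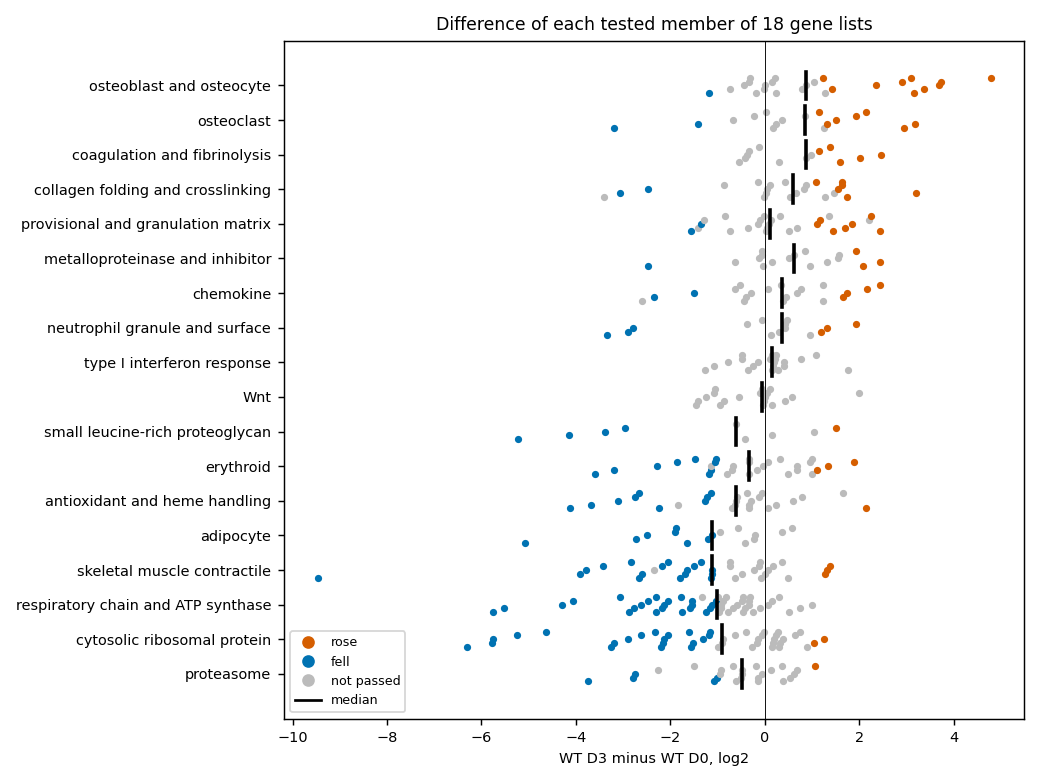
Difference of WT D3 from WT D0 (log2, x axis) for each tested member of 18 gene lists (y axis), orange for those that rose, blue for those that fell and grey for those that did not pass, with the list's median as a black bar. The members of the osteoblast list spread to the right as far as Dlx3, and those of the muscle, respiratory and ribosomal lists to the left.

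Genes of mitochondrial respiration fell or did not pass. Of 48 tested subunits of the respiratory chain and ATP synthase, 23 fell and 25 did not pass. 6 had a difference above 0, and 37 had all D3 arrays below all D0 arrays, as 21.6% of all tested genes did. The median was -1.01. Cyc1 (cytochrome c1 of complex III) read 10.05, 10.30 and 10.39 at D0 and 4.42, 4.62 and 4.41 at D3, a fall of 5.77 to the floor. Atp5j fell by 5.52, Atp5f1 by 4.30 and Ndufs8 by 3.07. Within the same complexes, Cox4i1 had means of 12.45 and 12.74, Ndufb8 of 12.78 and 12.92 and Atp5g3 of 13.84 and 13.53. Some glycolysis genes fell as well, with Eno3 (the muscle enolase) lower by 3.22, Aldoa by 2.57, Pkm2 by 2.07 and Gapdh by 1.90, 5 lower and 2 higher of 17 tested. The 2 that rose were Slc2a1 (the glucose transporter GLUT1), by 1.27, and Pfkl (the liver form of phosphofructokinase), by 1.55.

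Cytosolic ribosomal protein genes, whose products are needed in equal amounts, did not move together. Of 43 tested, 20 fell, 2 rose and 21 did not pass. Rps6 read 10.54, 10.86 and 10.75 at D0 and 4.58, 4.64 and 5.61 at D3, a fall of 5.77. Rps7 fell by 5.76, Rps2 by 5.25 and Rpl24 by 4.63. Rpl31 fell by 6.31 with its brighter probe while the dimmer probe read 0.42. Rpl23, by contrast, had means of 13.95 and 14.15 and its 3 other probes read -0.10, 0.12 and 0.09, Rpl38 stood at 14.43 and 15.07, and Rps26 rose by 1.04 and Rplp0 by 1.25. Ribosomal protein genes have many similar pseudogenes, and cross-hybridisation with these was not tested. Of the 43 genes, 6 had a tested probe of the opposite sign, as did 893 of all 10291 tested genes. Both counts include genes with 1 tested probe, which cannot have one. The proteasome list was split likewise, with 5 of 25 lower (Psma7 by 3.74, Psmc1 by 2.79, Psma4 by 2.75) and Psmd13 higher by 1.05. For Psmb7, Psmb2, Psmd7 and Psmc5 the brightest probe did not pass, with differences of -0.49, -0.15, -0.06 and 0.37, while the second probe read -3.42, -3.19, -2.51 and -3.34. Over all tested genes, 280 of the 913 that fell (30.7%) had a D3 mean below the median probe, and 58 of the 838 that rose (6.92%) had a D0 mean below it. A floor of this kind limits the size of a difference that can be read.

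**Figure D4:**
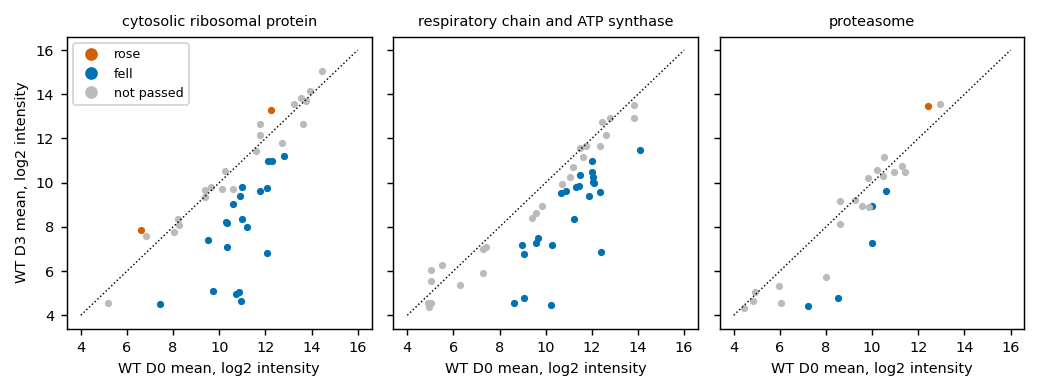
Mean log2 intensity at WT D3 (y axis) against WT D0 (x axis) for the tested genes of 3 lists, with a dotted line of equal level, orange points for genes that rose, blue for those that fell and grey for those that did not pass. In each panel some genes lie on the line and others of like D0 level, such as Rps6 and Cyc1, lie near the floor at D3.

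Genes of fat cells fell or did not pass. Of 15 tested adipocyte genes, 8 fell and 7 did not pass, and the median was -1.13. Car3 (carbonic anhydrase 3, abundant in fat and slow muscle) read 9.66, 9.71 and 9.53 at D0 and 4.38, 4.96 and 4.32 at D3, a fall of 5.08. Dgat2, which completes triglyceride synthesis, fell by 2.73, Slc2a4 (GLUT4) by 2.49, Cfd (adipsin) by 1.91, Adipoq (adiponectin) by 1.88, Pparg by 1.65, Pnpla2 by 1.20 and Lpl by 1.13. The summed intensity of the list was 13.57 to 13.61 at D0 and 12.09 to 12.24 at D3 on the log2 scale. Of 13 circadian clock genes, Dbp fell by 2.83, Nr1d1 by 1.71, Clock by 1.51 and Rora by 1.44 (the hour of sampling was not given), and 9 did not pass. Of 26 genes that handle oxidants and heme, 9 fell, led by the peroxiredoxins Prdx3 (4.12 lower) and Prdx2 (3.68 lower) and by Gpx1 (3.10 lower). Mt1, a metallothionein induced by zinc and stress hormones, rose by 2.14, from arrays of 11.95, 11.90 and 11.79 to 13.96, 14.13 and 13.96.

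Of 29 tested inflammatory cytokines and receptors, 2 rose and 27 did not pass, and the median was 0.18. Il1b had means of 4.53 and 4.46 and Il6 of 4.89 and 5.43. Il1rn, the antagonist of the interleukin 1 receptor, read 5.66, 5.69 and 5.80 at D0 and 7.89, 7.92 and 8.09 at D3 and rose by 2.25 (adjusted p = 0.000298). Tnfaip2 rose by 1.01 with its brightest probe, while its others read -1.59 and -1.45. Among 20 chemokines, Cxcl16 rose by 2.43, Ccl4 by 2.16, Cxcl14 by 1.73 and Ccl7 by 1.66, and Cxcl12, which holds progenitors in the marrow, fell by 1.50 and Ccl21c by 2.34. Of 21 tested genes of the type I interferon response, limma called 0 in either direction (2 were higher and 2 lower at an unadjusted p under 0.05, and the methods' t-test called 0), with a median of 0.16.

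Neutrophil and macrophage genes did not form a single pattern. Of 14 neutrophil genes, Mmp9, Mpo (myeloperoxidase, 1.32 higher) and Prtn3 (1.19 higher) rose, and Ngp (3.35 lower), Lcn2 (2.89 lower) and Ctsg (2.79 lower) fell. S100a8, which forms calprotectin in neutrophils, read 12.88, 12.81 and 12.88 at D0 and 7.88, 6.83 and 7.96 at D3, a fall of 5.30, while S100a9, its partner, fell by 1.12. Of 21 monocyte and macrophage genes, Gpnmb (osteoactivin) rose by 1.29, and Lyz2 (lysozyme) fell by 4.99 and Ly6c1 by 3.15. The macrophage markers Cd68, with 5.70 and 4.77, and Emr1 (now Adgre1), with 4.76 and 4.94, were low at both times. B2m, the light chain of MHC class I, fell by 4.94 with one probe and 4.73 with the other. Of 7 MHC class II genes, H2-DMb1 rose by 2.17 and H2-Ab1 by 1.05, with the other probes of H2-Ab1 at -0.18 and -1.20. In the complement list, C4b (2.20 higher), C3 (1.32 higher), Cfp (1.53 higher) and C2 (1.16 higher) rose and Cfd and Serping1 fell. Of 13 genes on the coagulation and fibrinolysis list, 5 rose, among them Serpine2 by 2.02 and Plaur (the urokinase receptor) by 1.59, and 8 did not pass. The list also holds Serpinf1, a secreted serpin that limits vessel growth, which rose by 2.46.

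Few lymphocyte genes were bright enough to be tested. Of 8 pre-B and B lineage genes, Vpreb1, part of the surrogate light chain of pre-B cells, rose by 4.03 (SE 0.20, adjusted p = 0.00017), from arrays of 4.64, 5.05 and 4.42 to 8.74, 8.74 and 8.72. The other 7, among them Vpreb3 (5.70 and 5.13) and Cd79b (5.60 and 4.97), did not pass. Of 11 T and NK cell genes, Prf1 (perforin) rose by 1.89.

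Red cell genes, which report blood and marrow, fell more often than they rose. Of 29 tested, 9 fell and 3 rose, with a median of -0.33. Ermap fell by 3.60 and Eraf (now Ahsp, the alpha globin chaperone) by 1.47. The most abundant did not pass, with Hba-a1 at 15.23 and 14.53 and Slc4a1 (band 3) at 14.49 and 15.17. The summed intensity was 16.53 to 16.55 at D0 and 16.30 to 16.38 at D3. The highest value on any array is 15.23, so Hba-a1 stood at the top of the normalized scale at D0, which limits what its difference and the sum can show. Klf1, the erythroid master factor, rose by 1.89. Of 12 megakaryocyte and platelet genes, Gp5 rose by 1.16. In the angiogenesis list of 27 genes, 4 rose and 4 fell. Angpt2 (angiopoietin 2, made by sprouting endothelium) rose by 1.81, Pdgfb by 1.94, Cd34 by 2.26 and Nrp2 by 1.32. Vegfa, the main vessel growth factor, read 8.98, 8.69 and 8.64 at D0 and 4.48, 4.57 and 5.38 at D3, a fall of 3.96, with its second probe at -0.46, and Vegfb, Tek and Cdh5 fell by 1.89, 2.08 and 1.54.

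Signalling and cell cycle genes were read from lists too. Of 19 Wnt genes limma called 0 in either direction (1 was higher and 5 lower at an unadjusted p under 0.05, and the methods' t-test called 0). Of 18 TGF beta genes Tgfbr3 fell by 2.40, and Tgfb1, at 6.59, 6.19 and 4.55 and 8.60, 8.33 and 8.49, did not pass. Of 22 BMP genes, Bmp1 rose (it is a protease and not a ligand) and Fstl1, a follistatin-like antagonist, fell by 2.75. In the insulin-like growth factor list, Igfbp4 rose by 2.13 and Igf1 and Igfbp5 fell by 2.82 and 2.01. The second probe of Igfbp4 read 0.15 and that of Igf1 0.09, and neither passed. Of 32 genes of DNA replication and mitosis, 3 rose (Plk1 by 1.79, Cdc20 by 1.41 and E2f1 by 1.01) and 4 fell (Blm by 3.39, Top2a by 2.75, Hmgb2 by 2.22 and Ccnb1 by 1.71). These counts are near the shares over all tested genes, 8.14% risen and 8.87% fallen. The second probe of Cdc20 read -1.48 and that of Ccnb1 0.80. Of the 32 genes, 6 had probes of opposite sign, as did 893 of all 10291 tested genes. Cdkn1a (p21, the cell cycle inhibitor) rose by 2.30 with all 3 probes higher, and Ccng1, a p53 target too, fell by 4.08 with all 3 lower. Among immediate early genes Junb rose by 2.13, while Fos had means of 6.89 and 5.63. Chaperones of the cytosol fell or did not pass (Cryab 4.51 lower and Hspa8 3.40 lower, 4 of 17), and the secretory pathway was split, with Kdelr3 (2.50 higher) and Hsp90b1 (1.65 higher) among 4 that rose and Pdia3 (3.01 lower) among 5 that fell.

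Outside the lists, the genes with the largest rise whose arrays all went one way included Ranbp3l (4.50) and Exoc3l (3.43). Others were Nhedc2, now Slc9b2, a sodium-proton exchanger of osteoclasts (3.73), Trib3, a pseudokinase of the integrated stress response (3.33), and Steap3, a metalloreductase of iron uptake (3.22). Each of these has 1 tested probe, so agreement between probes could not be checked. The genes with the largest fall included Mbnl1 (6.40 lower), a splicing factor of muscle, and Sar1b (6.34 lower), a GTPase of vesicle budding. Ankrd23, a titin-bound protein of muscle, was 5.56 lower, and all 3 were at the floor at D3. Mbnl1 and Ankrd23 have 1 tested probe each, and the 2 of Sar1b had the same direction.

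The change to D3 was compared with that in RAG1-/- mice, whose callus was taken at the same times and whose arrays are not shared with the WT comparison. In RAG1-/- 153 genes rose (1.49%) and 305 fell (2.96%) by the same rule. The difference between the genotypes' changes was tested itself: the change was higher in WT for 969 genes (9.42%) and lower for 1055 (10.3%). That test fits a single spread per gene over the arrays of both genotypes, although WT arrays spread more. Median SDs were 0.28 and 0.30 in WT and 0.10 and 0.16 in RAG1-/-. It also uses more arrays, so its counts are not on the same footing as those within a genotype. Of the 1751 genes changed in WT, 117 changed in the same direction in RAG1-/-, which is 6.68% of the WT genes and 25.5% of the 458 RAG1-/- genes, and 25 changed in the opposite direction. Rag1 itself, the deleted gene, had means near the floor in all 4 groups, 4.83 and 5.42 in WT and 4.61 and 4.55 in RAG1-/-, and the place of its probe relative to the deleted part was not given. Sp7 differed by 3.36 in WT and 0.52 in RAG1-/- (difference of the changes 2.84, SE 0.18), Dlx3 by 4.78 and 0.49 (difference 4.29), and Chrng by 4.96 and 0.97 (difference 3.99, adjusted p = 6.63e-07). All 3 were already higher in intact RAG1-/- bone than in intact WT bone. Chrng had RAG1-/- means of 9.23 at D0 and 10.20 at D3 against 4.64 and 9.60 in WT, Dlx3 of 7.91 and 8.41 against 5.82 and 10.61, and Sp7 of 9.92 and 10.44 against 8.54 and 11.90. The D0 levels of the genotypes were compared as values and not tested. On the osteoblast list the change was higher in WT for 8 of 25 genes and lower for 2. Of the osteocalcin genes, Bglap2 differed by 1.23 in WT and 1.24 in RAG1-/- and the difference of its changes did not pass, while the change of Bglap1 was lower in WT (-1.61, adjusted p = 1.77e-05).

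On the osteoclast list the change was higher in WT for 6 of 17 genes and lower for 2. Over all tested genes these shares were 9.42% and 10.3%. On the lists that fell, the change was lower in WT for 19 of 48 respiratory genes, 23 of 43 ribosomal genes and 14 of 34 muscle genes, with 8 muscle genes and no respiratory or ribosomal gene higher. The medians of these 3 lists in RAG1-/- were -0.45, 0.31 and -0.48. Some adipocyte genes fell in both genotypes, 8 of 15 in WT and 6 of 15 in RAG1-/-, and the change was lower in WT for 3 and higher for 1. On the neutrophil list 8 of 14 fell in RAG1-/- and the change was higher in WT for 8 and lower for 2. The genotypes' D0 arrays differed too (they correlated at 0.913 to 0.941), so a difference of changes holds differences at D0 as well as at D3.

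**Figure D5:**
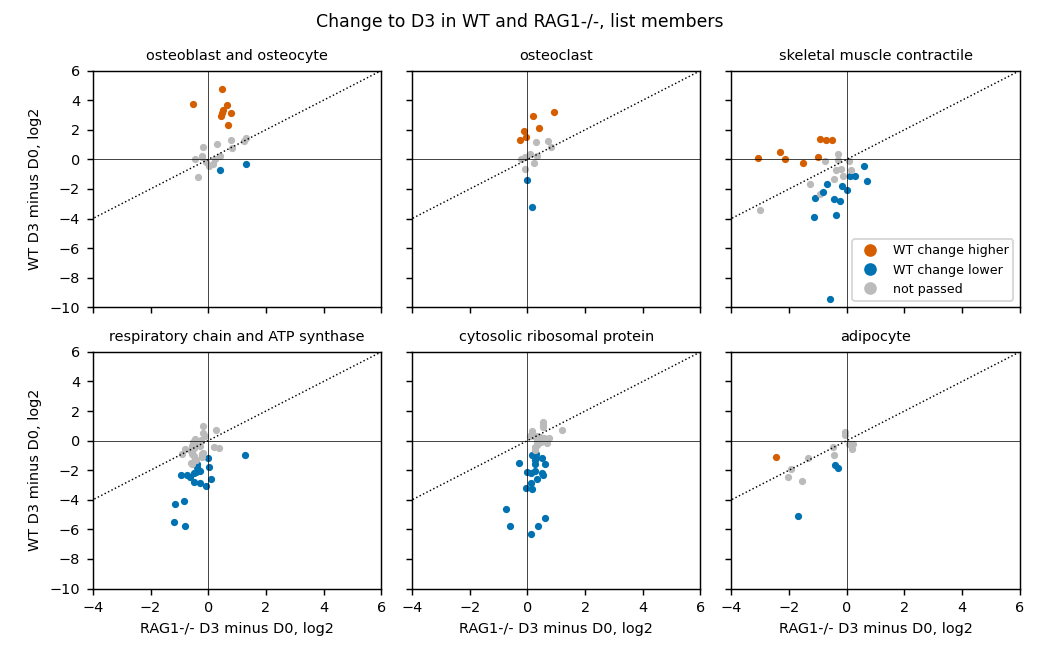
Difference of D3 from D0 (log2) in RAG1-/- (x axis) and WT (y axis) for the tested members of 6 lists, with a dotted line of equal change. Orange points had a higher change and blue points a lower change in WT by the test of the difference, and grey points did not pass. Most coloured points lie far from 0 on the WT axis and nearer to 0 on the RAG1-/- axis.

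WT callus of D3 was last compared with WT callus of D7. In limma 0 genes passed in either direction (772 genes had an unadjusted p under 0.05, 1 had an adjusted p under 0.05, and the methods' t-test called 0), and the largest difference was 2.81 on the log2 scale. With all 36 arrays in 1 fit, 123 genes were higher and 118 lower at D3. Among the leading genes, Chrng had a D7 mean of 9.54 against 9.60 at D3, Dlx3 of 10.46 against 10.61, Sp7 of 11.82 against 11.90, Vpreb1 of 8.78 against 8.73, Mylpf of 5.04 against 4.80, and Rps6 of 5.72 against 4.94. A p that misses the limit does not show that the days were alike, and the D7 arrays were spread more widely, with a median SD of 0.36.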

How the data were processed

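RNA of WT and RAG1-/- bone was measured on 36 Illumina MouseRef-8 v2 arrays, 3 technical arrays for each of 12 pools of 5 mice. The log2 values used were deposited by the authors after pre-processing with beadarray and quantile normalization between arrays with lumi, and base 2 was inferred from their range, with a highest value of 15.23. Quantile normalization gives every array the same distribution, so a shift shared by most genes is removed. Probe symbols were taken from the deposited annotation (of 10291 tested genes, 8296 have a symbol that RefSeq still uses, 1552 an older synonym and 443 neither). Further tables hold 264 columns of per-array values named by BeadChip position, which the labels do not pair with samples, and these were not used. Columns of group averages and detection p-values were not used either.

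Differences were computed in R 4.3.3 with limma 3.58.1, with a mean for each group and only the arrays of the groups compared, and adjusted by Benjamini-Hochberg over the 10291 genes. The number of arrays limits the precision. The fit was tested on simulated data, where large changes in genes with a wide spread between arrays were often missed, so a gene that did not pass may have changed. Replicate numbers did not pair arrays (correlations of deviations -0.010 to 0.0037).

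The members and the 49 gene lists were chosen with earlier results of these data known. Named genes are first those with the largest differences whose arrays, and probes where there were several, all went one way. To these were added up to 6 changed members per direction and some not passed from each list. Genes with opposite probes, genes with the largest genotype difference and genes the study names were added too. A few further list members were named after their values were seen. A few genes that this rule names are not reported here. Alternatives covered the dim-probe filter, the choice of probe, which arrays were fitted, the methods' t-test, a replicate block, the limits, the variance model, centring, array weights and each array left out. Sequences are from RefSeq promoters (GRCm38.p6). All 3 genes looked up for printing matched. Figures were drawn with matplotlib 3.10.9.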

Additional observations from a re-analysis of the deposited data

Results flagged for a closer look

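The change from D0 to D3 differed between the genotypes, by the test of the difference itself, in 969 genes whose change was higher in WT and 1055 whose change was lower. The cause was not tested, and genotype cannot be told apart from any difference between the pools of the genotypes.

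The genes with the largest such differences were these. Pi16, a peptidase inhibitor of fibroblasts, rose in WT from 9.33 to 11.36 and went from 10.84 to 8.06 in RAG1-/-, a difference of 4.82 between the changes. C4b (complement component 4B) had WT means of 6.99 and 9.19 and RAG1-/- means of 8.45 and 6.43, a difference of 4.22. For Myh6, the alpha cardiac myosin chain, the means were 4.72 and 6.76 in WT and 7.25 and 5.02 in RAG1-/-, a difference of 4.28. Arid3a, a DNA-binding protein of B cells and red cell precursors, differed by 4.03, with changes of 2.62 in WT and -1.41 in RAG1-/- and D0 means of 4.72 and 6.31. In Dlx3 the difference was 4.29 and in Panx3 it was 4.27, with RAG1-/- changes of 0.49 and -0.54. Both were higher at D0 in RAG1-/- than in WT: Panx3 had RAG1-/- means of 11.41 and 10.87 against WT means of 5.89 and 9.62, and Dlx3 had 7.91 and 8.41 against 5.82 and 10.61.

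In the other direction, Mylpf had a difference of -8.88 (RAG1-/- means of 13.75 and 13.16), Rpl31 of -6.42, Rps6 of -6.16 (RAG1-/- 9.82 and 10.21), Rps2 of -5.84, the gene model LOC665250 of -5.79 and Mbnl1 of -5.42 (RAG1-/- 10.83 and 9.85). The WT D3 arrays hold the low values of each of these, and the RAG1-/- D0 and D3 arrays do not. WT D7 means were low too, at 5.04, 5.17, 5.72, 7.04, 5.99 and 5.09 in the same order.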

How the results depend on the processing

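Over all tested genes, 2021 have 2 or more tested probes, and in 893 of these the probes differed in sign, whether or not they passed. Of 221 genes named, 63 have 2 or more tested probes, and their direction often depended on the probe. Some of the 63 were named because their probes were opposite, which fixed part of these counts. With the second brightest probe, 26 went the other way: Acan (0.0027), Ap2s1 (0.95), Bmp1 (-1.72), Ccnb1 (0.80), Cdc20 (-1.48), Chrnb1 (-0.32), Col6a1 (-0.96), Cox4nb (-1.51), Cxcl12 (0.11), Cxcl14 (-0.23), Dcn (-4.23), H2-Ab1 (-0.18), Hdgf (-2.77), Hmga1 (1.33), Ibsp (-0.70), Igf1 (0.086), Ikbkg (2.08), Lass2 (-2.84), Mmp13 (-0.24), Mpo (-0.034), Psmc5 (-3.34), Rpl23 (-0.10), Rpl31 (0.42), Rpl38 (-0.57), Tmem38b (0.45) and Tnfaip2 (-1.59). With the mean of a gene's probes, 11 did: Ap2s1 (0.94), Bmp1 (-0.60), Cdc20 (-0.24), Chrnb1 (-0.095), Dcn (-2.04), H2-Ab1 (-0.11), Hdgf (-0.83), Ikbkg (0.057), Lass2 (-0.014), Psmc5 (-1.48) and Tnfaip2 (-0.68). With probes filtered on the 6 arrays compared, which can choose another probe, 6 of 216 did: Ap2s1 (0.95), Calcr (0.34), Hmga1 (1.33), Ikbkg (2.08), Rpl31 (0.42) and Tmem38b (0.45). Centring each array on its median turned Col1a1 (0.057) and Psmd7 (0.00075), and leaving out an array turned Acp5 (-0.13 to 0.24), Tnfsf11 (-0.72 to 0.13), Chrnb1 (-0.00058 to 0.20), Col1a1 (-0.078 to 0.077) and Dcn (-0.016 to 0.24), none of which passed with all arrays. Under the other alternatives run, no gene of the 221 changed direction. The cause was not tested.

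Of the counts at D3 against D0, all 36 arrays in the fit gave 1365 higher and 1444 lower, a limit of 2 on the log2 scale 231 and 546, and only genes with several probes that all changed one way 34 and 66. The replicate number as a block gave 54 and 247, and replicates share only a number here. Leaving out 1 array gave 440 to 581 higher and 577 to 757 lower, with fewer arrays by construction. The share of opposite probes was 7.97% where both probes passed the stricter rule, and 11.5% to 16% with an array left out. Between D3 and D7 all 36 arrays in the fit gave 123 higher and 118 lower, an adjusted p under 0.05 gave 1 lower, and each array left out gave 0. The counts of differences between genotypes ran from 819 to 1065 higher and 873 to 1122 lower with an array left out, and stayed within 1.5 times under every alternative run. Under the block, 119 of the 221 named genes no longer passed. The signal near the floor limits differences downward.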
